A study of Rattus norvegicus with 10 samples.

Results

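The heat shock and DnaJ chaperone genes are the genes whose symbol opens with Hsp90, with Hspa, Hspb, Hspd, Hspe or Hsph and a number, or with Dnaja, Dnajb or Dnajc and a number. Of the 12828 genes in the deposited table, 59 met this rule, 19 of them Hsp genes and 40 of them Dnaj genes, and all 59 were protein-coding. The table comes from RNA-seq of the arcuate nucleus (ARC) of 10 Wistar rat dams, first-time pregnant and sampled upon parturition. Of these dams, 5 were fed folic acid at 5X the recommended level through pregnancy (5X-FA) and 5 were fed an equimolar amount of [6S]-5-methyltetrahydrofolic acid (5X-MTHF). Both diets were AIN-93G based, the groups differed in the form of folate, and neither received the 1X level. The ARC, a nutrient-sensing nucleus of the mediobasal hypothalamus, was cut free hand from frozen slices, so that neighbouring tissue can be present.

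The level used here is the authors' log2 CPM, where CPM is a gene's read count scaled to the size of the library. As its column names no sample, it was read as the average log2 CPM over the libraries of both diets. It is 1 value per gene, with no spread and no n. The 10 columns of values for single libraries carry no name that matches a sample label and were not used. The authors' own test of the diets was not used either. No difference between 5X-FA and 5X-MTHF dams is therefore given for any chaperone gene, and the averages do not show how deeply any library was sequenced. The average log2 CPM is not corrected for gene length, so every order given below is an order of reads and not of mRNA molecules.

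Chaperones bind unfolded or partly folded proteins and keep them from clumping. HSP70 proteins do so in cycles of ATP use that J proteins, the products of the Dnaj genes, start and that nucleotide exchange factors, among them the HSP110 proteins, complete. HSP90 proteins act later, on proteins such as steroid hormone receptors and kinases. In heat and other stress, heat shock factor 1 switches on part of these genes, and stress of the endoplasmic reticulum switches on others through ATF6 and XBP1.

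The 59 genes together took 10105 CPM, which was 1.01% of the summed CPM of the table. The median of their average log2 CPM was 5.90 (range 1.15 to 10.88), and that of all 12828 genes was 4.94 (range -2.07 to 14.56). Of the 59 genes, 40 (67.8%) lay above the median of the table. A total of 18 (30.5%) lay above percentile 90. At the other end, 3 lay below percentile 10 and 8 took fewer than 10 CPM. Reads were concentrated in a few genes, as *Hsp90ab1*, *Hspa8*, *Hsp90b1* and *Hspa5* together took 45.3% of the reads of the 59.

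**Figure D1:**
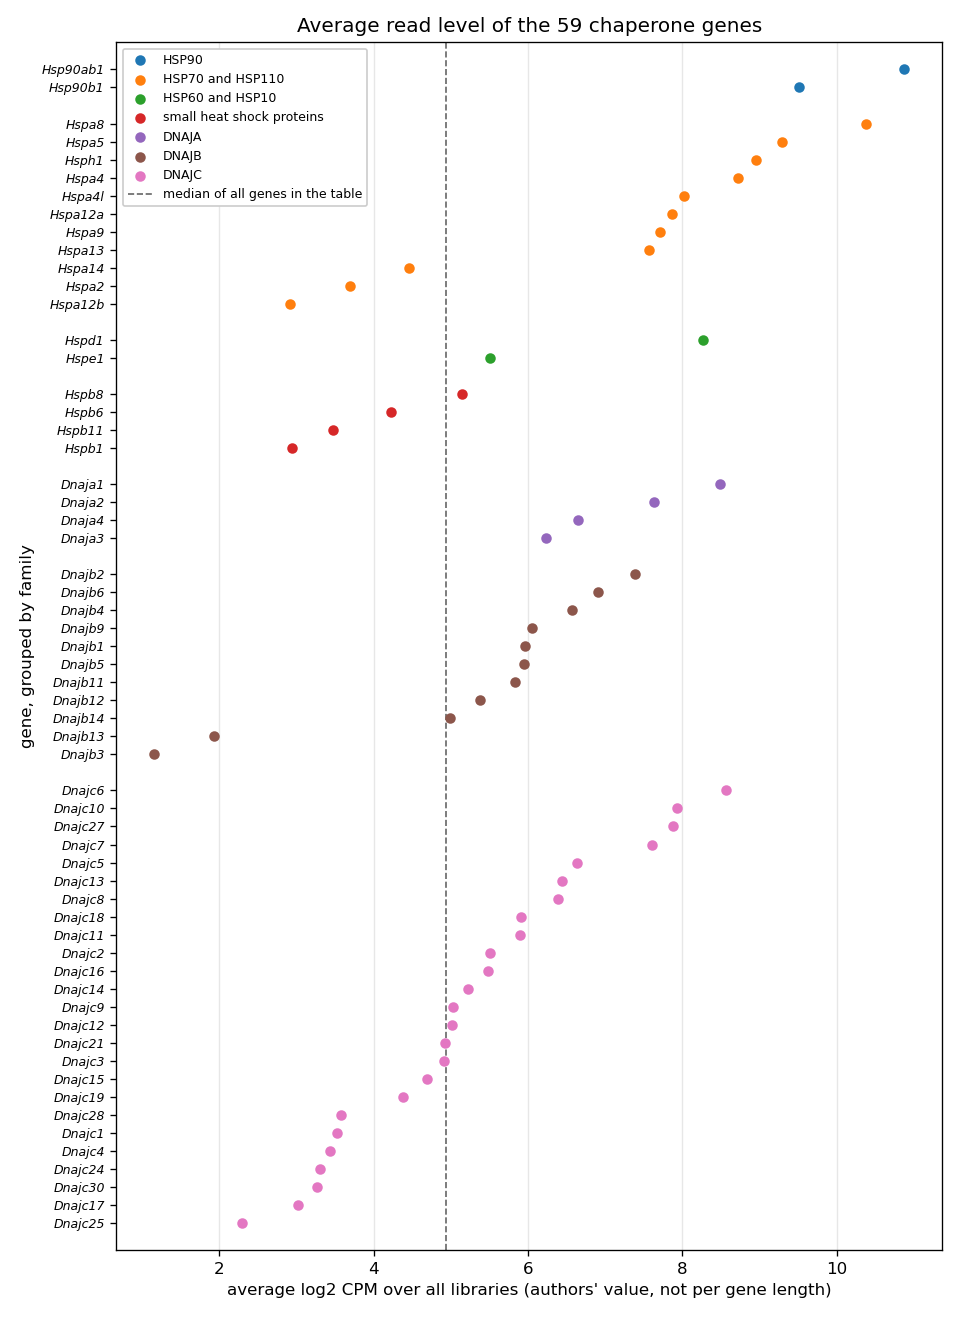
Average log2 CPM over all libraries (x axis, the authors' value, not per gene length) of each chaperone gene (y axis), coloured by family; each point is 1 gene and the dashed line is the median of all genes in the table, 4.94. Of the 59 points, 40 lie to the right of the line, and *Hsp90ab1* at 10.88 lies farthest right.

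The HSP90 family was represented by 2 genes, which took 25.9% of the members' reads. *Hsp90ab1*, the constitutive cytosolic HSP90, had an average log2 CPM of 10.88 (1883 CPM) and stood at percentile 99.8 of the table. *Hsp90b1*, the HSP90 of the endoplasmic reticulum also known as GRP94, had 9.52 (732 CPM). The heat-inducible cytosolic form, *Hsp90aa1*, was not analysed here.

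The HSP70 and HSP110 genes were 11 in number and took the largest part of the reads of any family, 37.8%. *Hspa8*, the constitutive HSP70 of the cytosol (Hsc70), had an average log2 CPM of 10.38 (1335 CPM). *Hspa5*, the HSP70 of the endoplasmic reticulum (BiP), had 9.29 (628 CPM). These values place both genes above percentile 98 of the table, at 99.7 and 98.9. The 3 HSP110 genes *Hsph1*, *Hspa4* and *Hspa4l*, whose products release ADP from HSP70, had 8.96, 8.72 and 8.02. *Hspa9*, the mitochondrial HSP70 (mortalin), had 7.71, and *Hspa13* and *Hspa12a*, divergent members of the family, had 7.57 and 7.86. The remaining 3 genes lay below the median of the table. They were *Hspa14*, a ribosome-associated member, at 4.46, *Hspa2*, best known from the testis, at 3.69, and *Hspa12b*, known from endothelium, at 2.92. The stress-inducible *Hspa1a* and *Hspa1b* and their neighbour *Hspa1l* were not analysed here.

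The pair of mitochondrial chaperonin genes took 3.50% of the reads. *Hspd1*, which encodes HSP60, had an average log2 CPM of 8.27, and *Hspe1*, which encodes its lid HSP10, had 5.51. The HSP10 transcript is far shorter than that of HSP60, so that the reads do not rank the pair by molecules. The small heat shock proteins were 4 genes with 0.720% of the reads, and 1 of them, *Hspb8*, lay above the median of the table at 5.14. *Hspb6* had 4.22, *Hspb11*, which despite its name encodes a part of the intraflagellar transport machinery, had 3.48, and *Hspb1*, which encodes HSP27, had 2.95 (7.72 CPM).

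**Figure D2:**
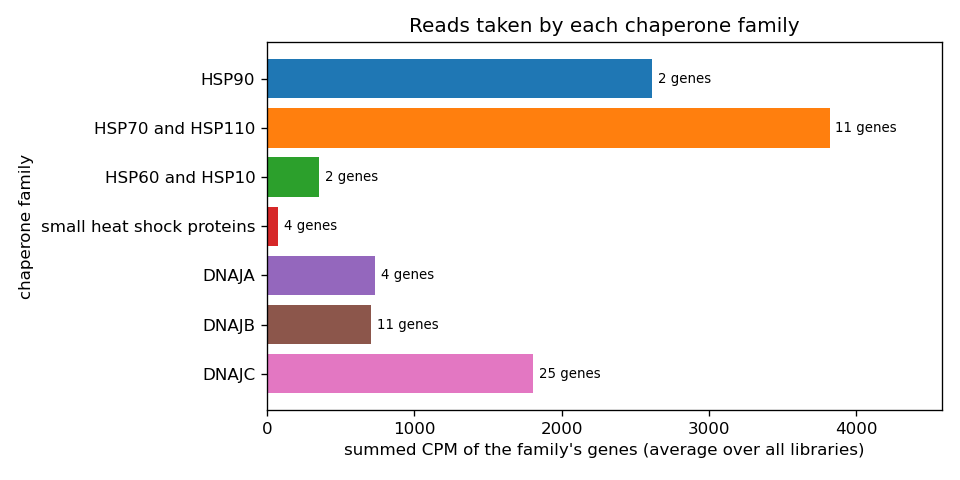
Summed CPM (x axis, average over all libraries) of the genes of each chaperone family (y axis); each bar is 1 family and the label gives its number of genes. The HSP70 and HSP110 bar reaches 3818 CPM and the HSP90 bar 2615 CPM, against 1807 CPM for the 25 DNAJC genes.

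The 40 J protein genes took 32.1% of the members' reads and the 19 Hsp genes 67.9%. All 4 DNAJA genes lay above the median of the table. *Dnaja1* and *Dnaja2*, general partners of cytosolic HSP70, had average log2 CPMs of 8.48 and 7.63, *Dnaja4* had 6.64, and *Dnaja3*, the mitochondrial member, had 6.23. Of 11 DNAJB genes 9 lay above the median. The most reads fell on *Dnajb2*, a J protein enriched in neurons, at 7.38, on *Dnajb6*, which keeps polyglutamine proteins from aggregating, at 6.90, and on *Dnajb4* at 6.57. The heat-inducible *Dnajb1* had 5.97 and *Dnajb5* had 5.95. The lowest pair of all 59 genes also belonged to this family. *Dnajb13*, a component of motile cilia and sperm tails, had 1.93, and *Dnajb3*, known from the testis, had 1.15 (2.23 CPM).

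The DNAJC genes, which share the J domain and little else, were 25 with a median of 5.03, and 14 of them lay above the median of the table. *Dnajc6* encodes auxilin, which recruits Hsc70 to strip clathrin from vesicles in neurons, and it had the highest average log2 CPM of any J protein gene, 8.56 (377 CPM). *Dnajc10*, a disulfide reductase of the endoplasmic reticulum, came next within the DNAJC family at 7.93, and *Dnajc27*, which joins a Rab-like GTPase domain to a J domain, had 7.87. *Dnajc7*, which binds both HSP70 and HSP90, had 7.60. *Dnajc5* encodes cysteine string protein of synaptic vesicles and had 6.63, whereas *Dnajc13*, an endosomal J protein, had 6.44. Together with *Gak*, the auxilin found in most cells, which is not one of the 59, these genes of vesicle traffic took 667 CPM and all 4 lay above the median. *Dnajc12*, a partner of the aromatic amino acid hydroxylases, had 5.02. Values of 9 further DNAJC genes, *Dnajc2*, *Dnajc4*, *Dnajc8*, *Dnajc9*, *Dnajc14*, *Dnajc16*, *Dnajc21*, *Dnajc24* and *Dnajc28*, lay between 3.30 (*Dnajc24*) and 6.39 (*Dnajc8*). At the low end stood *Dnajc25* at 2.30 and *Dnajc17*, a splicing factor, at 3.02.

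By compartment, all 10 listed chaperones of the endoplasmic reticulum had a value. They took 2032 CPM and 8 of them lay above the median of the table. Beside *Hsp90b1*, *Hspa5*, *Dnajc10* and *Hspa13*, these were the BiP partners *Dnajb9* at 6.05 and *Dnajb11* at 5.83, and the membrane-bound *Dnajb12* at 5.38 and *Dnajb14* at 5.00. The others were *Dnajc3*, which inhibits the kinase PERK, at 4.91 and *Dnajc1* at 3.52. All 8 listed mitochondrial chaperones had a value as well, and these took 754 CPM. Of them, *Dnajc11* had 5.90, and the import motor parts *Dnajc15* and *Dnajc19* had 4.69 and 4.38. The smallest value was that of *Dnajc30* at 3.27.

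Other genes of the chaperone network, none of them among the 59, were taken from fixed lists. Of 34 co-chaperones and heat shock factors 33 had a value, with a median average log2 CPM of 5.91, and 26 were above the median of the table. *Stip1*, which hands proteins from HSP70 to HSP90, had 8.14, and the transcription factors *Hsf1* and *Hsf2* had 5.20 and 5.54. The 8 subunit genes of the CCT chaperonin, a ring that folds actin and tubulin, lay close together between 7.35 and 7.97. The 20 genes of the unfolded protein response ran from 3.65 to 10.17 with a median of 6.10, 15 of them above the median of the table. The highest was *Canx*, the lectin chaperone calnexin.

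The 59 genes were spread over 17 chromosomes, none of them X or Y, and chromosome 5 held the most, 8. Their spans in Rnor_6.0 ran from 1014 to 154220 bp with a median of 18229 bp, against 21482 bp over the table. Only *Hspd1* and *Hspe1* were direct neighbours among them. They lie on chromosome 9 from 61680530 to 61690956 and from 61692154 to 61694599, with 1197 bp and no gene of the table between them. The next closest pair on any chromosome was *Hspa9* and *Dnajc18*, which lie 717075 bp apart with 6 genes of the table in between.

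The promoter sequences of RefSeq, in the GRCr8 build, were used to look for 2 known response elements. The 59 genes were chosen by symbol and not by sequence. Both elements are sites of the factors named above, which are known to switch on part of these genes. Matches in chaperone genes and in genes of the unfolded protein response are therefore no independent result. Each promoter window held 250 bases before the annotated start site and 50 after it. A promoter was found for 49 of the 59 genes and for 9445 of the 12828 genes of the table, the 49 included. The other 10 were *Dnaja2*, *Dnajb4*, *Dnajc2*, *Dnajc8*, *Dnajc11*, *Dnajc12*, *Dnajc15*, *Dnajc24*, *Hspa12a* and *Hspb11*. Positions are counted in bases along the gene, with the start base as 0. Heat shock factors bind inverted repeats of GAA. The letters searched were GAANNTTC and TTCNNGAA for 2 units, where N is any base, and either of these followed by 2 free bases and the next unit for 3 units, so that each 3-unit match also contains 2-unit matches. The ER stress element bound by ATF6 and XBP1 with NF-Y was searched as CCAAT, 9 free bases and CCACG, and it contains a CCAAT box. All were searched on both strands. A match is a description of letters and does not show that a factor binds there.

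A heat shock element of 3 or more units was present in 5 of the 49 promoters (10.2%), against 45 of 9445 (0.476%) over the table and 202 of 27457 (0.736%) over every RefSeq promoter. The 5 genes were *Hspa8*, *Hsph1*, *Hspd1*, *Hspe1* and *Dnaja1*, with average log2 CPMs of 10.38, 8.96, 8.27, 5.51 and 8.48. The stretches below show where the units stand in 4 of them, 5′ to 3′ along the gene and before the start site, with the run of units in capitals.
*Hspa8*, chr8:50080281-50080333, + strand: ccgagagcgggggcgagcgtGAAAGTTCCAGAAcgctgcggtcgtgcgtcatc
*Hspa8*, chr8:50080439-50080491, + strand: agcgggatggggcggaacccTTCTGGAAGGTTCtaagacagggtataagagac
*Hsph1*, chr12:10427312-10427364, + strand: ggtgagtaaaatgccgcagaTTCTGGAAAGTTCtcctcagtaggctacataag
*Hspe1*, chr9:64084242-64084299, + strand: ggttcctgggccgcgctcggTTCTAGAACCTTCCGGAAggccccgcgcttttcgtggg
*Hspd1*, chr9:64084242-64084287, - strand: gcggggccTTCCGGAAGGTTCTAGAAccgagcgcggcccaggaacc

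In *Hspa8* there were 2 runs of 3 units, which began at positions -213 and -55. The run of *Hsph1* began at -36. The run of *Hspd1* and that of *Hspe1* are the same 18 bases read from opposite strands. The genes are transcribed away from each other, with start sites 290 bases apart in GRCr8, and their windows overlap by 211 bases. The run has 4 units, a length reached in 4 of the 9445 promoters, of which these were 2. The count of 5 genes thus stands for 4 separate places in the genome. In *Dnaja1* the run began at position 9, past the start site, and is not printed.

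A heat shock element of at least 2 units was present in 15 of the 49 promoters (30.6%), against 1031 of 9445 (10.9%) over the table. Beside the 5 genes above these were *Hspb1*, *Hspb6*, *Hspb8*, *Dnajb1*, *Dnajb6*, *Hspa2*, *Hspa4l*, *Hspa9*, *Dnajc18* and *Dnajc27*. All 3 small heat shock protein genes with a promoter held such a match, as did 5 of 10 HSP70 and HSP110 genes, 2 of 10 DNAJB genes and 2 of 19 DNAJC genes. The average log2 CPM of the 15 genes ran from 2.95 (*Hspb1*) to 10.38 (*Hspa8*). Of the 11 genes with a promoter in the list of heat-inducible genes, 10 had a 2-unit match. The list was drawn up from textbook targets of the heat shock factor, so this count is no independent result. This list also holds co-chaperones, and it holds *Hspa8*, which is mainly constitutive and is one of the 10. The 10 promoters of the listed endoplasmic reticulum chaperones held 0 matches of 2 units. At 10.9% over the table, 10 promoters are too few to show a lack of them.

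**Figure D3:**
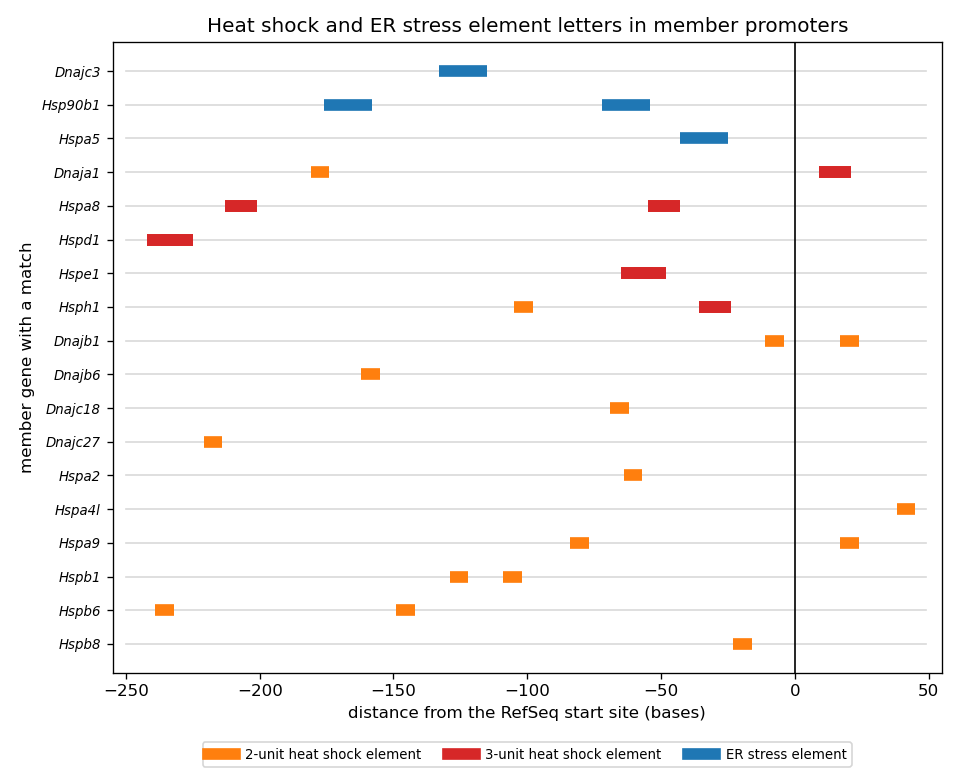
Position of heat shock element and ER stress element letters (x axis, bases from the RefSeq start site) in the promoters of the 18 chaperone genes with a match (y axis); each coloured bar is a match or a run of overlapping matches, and the grey line is the window searched. The 3 genes with an ER stress element, at the top, hold no heat shock element letters, and 3 promoters are too few to show a lack of them.

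The ER stress element was present in 3 of the 49 promoters (6.12%), against 15 of 9445 (0.159%) over the table and 21 of 27457 (0.0765%) over every RefSeq promoter. The 3 genes were *Hspa5*, *Hsp90b1* and *Dnajc3*, all of the endoplasmic reticulum, with average log2 CPMs of 9.29, 9.52 and 4.91. The stretches below show the element in capitals, 5′ to 3′ along the gene, and *Hsp90b1* holds 2 copies on opposite strands.
*Hspa5*, chr3:38452953-38453011, + strand: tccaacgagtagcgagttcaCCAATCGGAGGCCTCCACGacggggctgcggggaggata
*Dnajc3*, chr15:102432514-102432572, + strand: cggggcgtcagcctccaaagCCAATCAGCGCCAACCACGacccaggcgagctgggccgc
*Hsp90b1*, chr7:23012327-23012489, - strand: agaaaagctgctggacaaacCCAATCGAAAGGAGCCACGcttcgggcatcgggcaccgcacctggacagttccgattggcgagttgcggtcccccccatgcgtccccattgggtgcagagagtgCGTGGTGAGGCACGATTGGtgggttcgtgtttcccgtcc

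The element of *Hspa5* began at position -43 and that of *Dnajc3* at -133. Those of *Hsp90b1* lay between -176 and -54. The other 7 endoplasmic reticulum chaperone genes, all with a promoter, held no exact match in this window. In the list of the unfolded protein response, 4 of 15 promoters held the element, those of *Calr*, *Canx*, *Creld2* and *Xbp1*. It was present in 0 of 28 promoters of co-chaperones and heat shock factors and in 0 of 8 of the CCT chaperonin. At 0.159% over the table, lists this short cannot show a lack of it. In these lists 3-unit heat shock elements stood in *Chordc1* and *Cct4*. The general promoter letters differed less between the 49 genes and the table. A CCAAT box was present in 42.9% of the 49 and in 37.6% of the table. The letters of a TATA box (TATAAA), counted anywhere in the window, were present in 6.12% and 6.36%. In the 49 these letters began at positions -199 (*Dnajb6*), -60 (*Dnajc30*) and -58 (*Hspb6*). The median GC content was 62.0% and 61.3%. The ratio of observed to expected CpG was at least 0.6 in 79.6% and 73.6%.

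The labelled region was checked against fixed marker lists in the same averages. Of 11 markers of arcuate neurons 9 had a value, with a median average log2 CPM of 2.45 and a sum of 149 CPM. Only *Cartpt*, at 6.02 (65.0 CPM), lay above the median of the table. *Pomc* had 4.67, *Esr1* 4.49, *Tac3* 4.34, *Tbx3* 2.45, *Prlr* 2.21, *Agrp* 1.42, *Ghrh* 1.02 and *Kiss1* 0.08. Markers of the striatum (9 of 9 with a value) had a median of 5.96, with 7 above the median of the table, and summed to 675 CPM. They ran from *Adora2a* at 4.26 to *Penk* at 7.68 (205 CPM). One of them, *Drd2* at 4.70, was also measured by the paper in the ARC by qRT-PCR. Markers of cerebral cortex and hippocampus (6 of 8) had a median of 4.05 and summed to 370 CPM. Only 2 of them, *Nrgn* (178 CPM) and *Slc17a7* (144 CPM), lay above the median of the table, and *Neurod2* was lowest at 2.13. Markers of oligodendrocytes (5 of 5) summed to 13327 CPM, of astrocytes (5 of 5) to 3376 CPM and of microglia (6 of 6) to 227 CPM. Those of endothelium (4 of 5) summed to 174 CPM and those of ependyma (4 of 6) to 53.8 CPM. Immediate early genes (8 of 11) summed to 114 CPM. *Cck* of this cortex and hippocampus list, at 4.76, was also measured by the paper in the ARC by qRT-PCR. Genes listed as markers of other regions and of several cell types thus had values beside those of the ARC. These values alone do not show that tissue of another region was present. The part of each region and cell type in the chaperone levels was not tested. Fewer cells of a type and less RNA per cell cannot be told apart in these bulk samples.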

How the data were processed

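RNA-seq of poly-A selected mRNA from the ARC of 10 dams was deposited by the authors as 1 table of a comparison of diets. Per the paper's methods and the submitters' processing notes, reads were trimmed with Trim Galore 0.5.0, aligned with STAR 2.6.0c to Rnor_6.0 with Ensembl gene models and counted with HTSeq 0.6.1p2. The value used was deposited by the authors under the heading logCPM, with 1 value per gene and no sample named. It was read as the average log2 CPM over all libraries. Converted back to CPM, the column summed to 1.00215e+06. The tool that computed it is not given in the sources used here.

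The authors' 4 columns of log2 fold change, F, p-value and FDR hold their own comparison and were not used. Another 10 columns of per-sample values, headed by numbers alone, could be tied to no sample label and were left out. The planned fit of 5X-MTHF against 5X-FA dams was therefore not run, and no test was made. Members were matched by symbol. Genes named are the 3 highest and the lowest of each family and the genes of fixed lists, and any other was chosen after its values were seen. The members and lists were chosen with earlier results of these data known. Percentiles are ranks among all 12828 genes. RefSeq promoters (GRCr8) were matched by Ensembl identifier, otherwise by symbol. The motif search was tested on simulated data. Python 3.11.15, numpy 2.4.6, pandas 2.3.3 and matplotlib 3.10.9 were used.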

Additional observations from a re-analysis of the deposited data

How the results depend on the processing

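The share of the 59 genes above the median was 67.8%, and it was 66.1% among protein-coding genes alone or once genes averaging under 1 on the log2 CPM scale were left out. The promoter alternatives were chosen after seeing the data. Over every RefSeq promoter (27457), 0.736% held a 3-unit and 15.4% a 2-unit heat shock element, and 0.0765% held an ER stress element. With only the bases before the start site, 0.392% of the table's promoters held a 3-unit and 9.39% a 2-unit heat shock element. Under that setting 8.16% of the 49 chaperone promoters held a 3-unit and 28.6% a 2-unit heat shock element, and matching by symbol alone left the shares of the 49 the same. No paired analysis was possible because the columns of single libraries carry no replicate number or diet of a sample label. For the same reason the fit of the diets and its alternatives on pseudocount, low-value filter, genes tested, normalization, tool and leaving out each dam were not run. The averages do not show sequencing depth, so the precision of each average is not given.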
